A study of Mus musculus with 9 samples.

Results

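The CA3 pyramidal marker genes described here are 8 genes, Bok, Cpne4, Iyd, Nectin3, Coch, Prss23, Trps1 and Cdh24, taken by name from the 31052 gene symbols of a deposited expression table. All 8 are in the table. RNA was measured in nuclei of mouse hippocampal pyramidal cells that had been classed during spatial navigation by imaging in the living animal and then tagged with light. Of the 9 libraries, 5 came from place cells, which fire at particular locations, and 4 from silent cells. Both groups carry the genotype label WT, and the labels give no strain, age, sex or treatment. The titles name a mouse by a code whose opening number is the same in all 9 libraries and whose closing number differs. They also give place cell or silent cell in the singular. The labels do not explain the code, and they do not say how many nuclei went into a library. Nor do they say which hippocampal subfield was imaged or whether each library is a separate animal. Libraries may therefore share an animal, and p-values measure only the spread between these libraries.

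The pyramidal cells of the hippocampus lie in a band divided into the subfields CA1, CA2 and CA3. CA3 cells receive input from dentate granule cells through the mossy fibres, excite one another through recurrent collaterals, and project to CA1. Genes enriched in CA3 over CA1 are used to tell the subfields apart, although several of them are also expressed in other cell types.

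Levels are given in RPM, which are whole reads recovered from the deposited values per 1000000 reads of a library's depth, after scaling by a trimmed mean of M-values (TMM). Place libraries held between 15.3 and 22.0 times 1000000 recovered reads, and silent libraries between 14.0 and 22.4. At these depths a count of 0 reads allows a level of up to 0.133 to 0.213 RPM, depending on the library, which covers counting error only. Between 16613 and 20990 genes were detected per place library and between 14176 and 17899 per silent library. The 4 markers of excitatory neurons summed to between 1481 and 2363 RPM in the 9 libraries. Silent replicate 1 stood apart by the lowest number of detected genes, 14176. Place replicate 3 stood apart by its summed oligodendrocyte and astrocyte markers, at 3556 and 1354 RPM. Silent replicate 4 had the lowest summed oligodendrocyte level of the 9 libraries, 118 RPM, and 15515 detected genes.

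Promoter windows are shown for 3 members, from 250 bases before to 50 bases after the annotated start, from RefSeq on GRCm38.p6, read 5′ to 3′ on the gene's strand. They are Bok, whose place and silent levels did not overlap, and Cpne4 and Nectin3, whose highest levels fell in the same libraries. Capitals mark each CG dinucleotide, the motif searched, whose letters read the same on both strands.
Bok: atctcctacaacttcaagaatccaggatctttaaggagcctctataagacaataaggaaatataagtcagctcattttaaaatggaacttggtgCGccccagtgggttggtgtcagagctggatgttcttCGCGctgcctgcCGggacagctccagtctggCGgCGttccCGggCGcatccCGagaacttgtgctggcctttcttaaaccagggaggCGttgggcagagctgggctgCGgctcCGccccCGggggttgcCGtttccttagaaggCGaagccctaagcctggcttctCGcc
Cpne4: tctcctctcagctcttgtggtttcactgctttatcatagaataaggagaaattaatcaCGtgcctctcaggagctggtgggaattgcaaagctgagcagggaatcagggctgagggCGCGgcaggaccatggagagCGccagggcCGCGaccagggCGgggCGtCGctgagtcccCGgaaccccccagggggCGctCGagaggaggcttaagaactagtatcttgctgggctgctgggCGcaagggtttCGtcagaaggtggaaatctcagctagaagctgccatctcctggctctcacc
Nectin3: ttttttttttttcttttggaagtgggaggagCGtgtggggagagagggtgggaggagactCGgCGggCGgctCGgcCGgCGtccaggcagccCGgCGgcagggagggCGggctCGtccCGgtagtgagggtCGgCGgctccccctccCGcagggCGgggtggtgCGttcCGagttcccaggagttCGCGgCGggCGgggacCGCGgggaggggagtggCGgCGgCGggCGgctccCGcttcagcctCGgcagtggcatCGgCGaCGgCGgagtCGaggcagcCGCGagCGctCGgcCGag

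The Bok window, at chr1:93685325-93685624 on the plus strand, held 16 CG dinucleotides. The Cpne4 window, at chr9:104569405-104569704 on the plus strand, held 14 and is the first of 2 entries for that gene. The Nectin3 window, at chr16:46496918-46497217 on the minus strand, held 40. Of 32851 promoter windows of the same length, 94.6% held at least 1 CG, and the median window held 7. At least as many as in Bok were found in 33.0% of the windows, at least as many as in Cpne4 in 36.3%, and at least as many as in Nectin3 in 3.91%. Of these 3 windows, that of Nectin3 was the richest in CG. An entry was at hand for 7 of the 8 members, all but Trps1.

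The 8 genes were not detected together as a set. Reads were found for 52 of the 72 combinations of a gene and a library. Trps1 and Cdh24 had reads in all 9 libraries, Nectin3 in 8, Bok, Cpne4 and Coch in 7 each, Prss23 in 4 and Iyd in 1. Over all genes of the table, 28.6% had reads in all 9 libraries and 22.3% in 1 library. Each place library held reads of between 5 and 7 of the 8 genes, and each silent library of between 4 and 6. At a level of at least 1 RPM, place libraries held between 4 and 6 members and silent libraries between 2 and 5. Silent replicate 1, with the fewest detected genes, also had the fewest members by both measures.

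**Figure D1:**
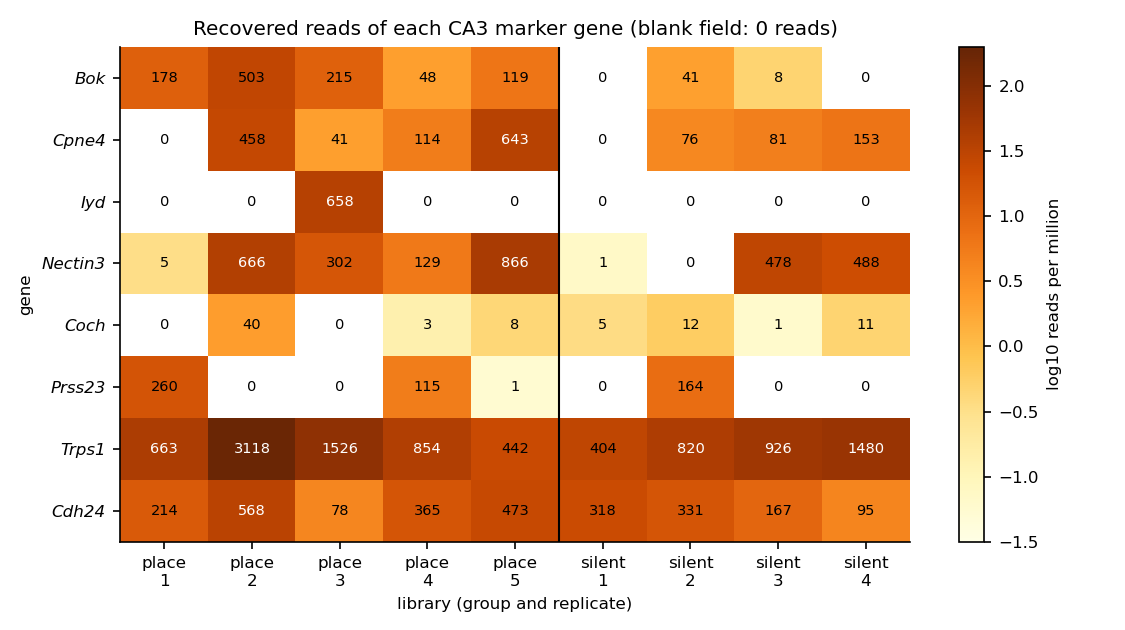
Recovered reads of each of the 8 CA3 marker genes (rows) in each of the 9 libraries (columns, place left of the line and silent right), printed in the fields, with colour giving log10 RPM and blank fields holding 0 reads. Trps1 and Cdh24 have reads in every library, whereas Iyd has its 658 reads in place replicate 3.

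Per length, every member lay below the median of the expressed genes. In RPM per kilobase of exon over the 9 libraries, the mean level was 4.65 ± 2.69 (SD) for Cdh24, 4.61 ± 3.46 for Trps1, 3.79 ± 5.03 for Bok and 2.40 ± 7.19 for Iyd. It was 1.68 ± 2.22 for Cpne4, 1.37 ± 1.36 for Nectin3, 0.910 ± 1.59 for Prss23 and 0.160 ± 0.234 for Coch. Each neighbouring pair in this order differed by less than the SD over libraries of its higher member. The median level of the 14487 tested genes with a length was 6.82 RPM per kilobase. Of those genes, 38.9% lay below Cdh24, 16.1% below Cpne4 and 0.345% below Coch. Exon lengths came from GENCODE M21 on GRCm38. The RNA is nuclear and how reads were counted is not given in the sources used, so any reads from introns are not scaled by these lengths.

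Against the silent libraries, limma called no member at an adjusted p under 0.05, and none of the 15232 genes tested (0%). Limma voom on the recovered reads called 4 genes, none of them a member. At an unadjusted p under 0.05, limma gave 769 of the 15232 genes (5.05%), of which 575 were higher (3.77%) and 194 lower in place (1.27%), and 1 of the 5 tested members, Bok. All 5 tested members had a positive log2 fold, place minus silent, as did 59.1% of all tested genes, but Cpne4, Trps1 and Cdh24 turned negative once the number of detected genes per library was a term. Their median log2 fold was 1.18, beside 0.20 over all tested genes. Their median standard error, 2.00 on the log2 scale, was larger than the 1.32 of all tested genes. Iyd, Coch and Prss23 reached a value of 10 in fewer than 4 libraries and were not tested, so the 5 tested members do not stand for all 8.

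Of the members with a role in cell adhesion, Cdh24, a type II cadherin, was the more evenly measured. In place replicates 1 to 5 it stood at 14.2, 32.0, 4.15, 16.6 and 25.3 RPM, and in silent replicates 1 to 4 at 22.6, 16.7, 10.2 and 4.2 RPM. Its highest and lowest libraries were both place libraries, and the silent range lay within the place range. Its highest level was 7.70 times its lowest. Its coefficient of variation over the 9 libraries was 0.578, below the 0.707 of the median tested gene. The group means were 18.4 ± 10.7 RPM (SD over 5 place libraries) and 13.4 ± 7.98 (SD over 4 silent libraries). The log2 fold, place minus silent, was 0.42 ± 0.96 (SE; limma, adjusted p = 0.954). Leaving out silent replicate 4 turned it to -0.06.

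Nectin3, an immunoglobulin-like adhesion molecule found at synapses and other cell contacts, varied widely within each group. It stood at 0.332, 37.5, 16.1, 5.87 and 46.3 RPM in place replicates 1 to 5 and at 0.0711, 0, 29.1 and 21.6 RPM in silent replicates 1 to 4. Place replicate 1 and silent replicates 1 and 2 held 5 or fewer reads each, while the other 6 libraries, from both groups, held at least 129. The means were 21.2 ± 19.9 RPM (SD over 5 place libraries) and 12.7 ± 14.9 (SD over 4 silent libraries), a ratio of 1.67. The log2 fold was 3.13 ± 2.53 (SE; limma, adjusted p = 0.861), larger than the ratio of means because libraries near 0 weigh more on the log2(value + 1) scale. Leaving out silent replicate 2, the library with 0 reads, left a fold of 1.22.

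Cpne4 encodes a copine, a protein that binds phospholipids in a calcium-dependent manner. Its levels were 0, 25.8, 2.18, 5.19 and 34.3 RPM in place replicates 1 to 5 and 0, 3.84, 4.93 and 6.76 RPM in silent replicates 1 to 4. Place replicates 5 and 2 stood above the silent libraries and were also the highest for Nectin3, and the other place libraries lay within the silent range. The means were 13.5 ± 15.5 RPM (SD over 5 place libraries) and 3.88 ± 2.86 (SD over 4 silent libraries). The log2 fold was 1.18 ± 2.61 (SE; limma, adjusted p = 0.952), and leaving out silent replicate 1, which had 0 reads, turned it to -0.76. Cpne4 and Nectin3 were both at 1 RPM or more in 6 libraries and both below it in 2, place replicate 1 and silent replicate 1. In silent replicate 2, Cpne4 passed 1 RPM while Nectin3 had 0 reads.

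Bok, a BCL-2 family member that promotes cell death, was the tested member whose groups did not overlap. It stood at 11.8, 28.3, 11.4, 2.18 and 6.36 RPM in place replicates 1 to 5 and at 0, 2.07, 0.487 and 0 RPM in silent replicates 1 to 4. All 5 place libraries were above all 4 silent libraries, by a margin of 0.112 RPM between the lowest place library, with 48 reads, and the highest silent library, with 41. The means were 12.0 ± 9.94 RPM (SD over 5 place libraries) and 0.640 ± 0.982 (SD over 4 silent libraries), a ratio of 18.8. The log2 fold was 5.73 ± 2.00 (SE), with an unadjusted p of 0.0141 by limma and an adjusted p of 0.861 over 15232 genes. Groups that did not overlap were found in 1.89% of all tested genes, and with place higher in 1.29%, beside 1 of the 5 tested members. Because the number of nuclei in a library is not given, fewer cells of a type and less RNA per cell cannot be told apart. Without silent replicates 1 and 4 and place replicate 3, which include both silent libraries with 0 Bok reads, the log2 fold was 3.0 ± 1.82 (SE; limma, unadjusted p = 0.135, adjusted p = 0.955). With the number of detected genes as a term it was 4.2 ± 2.52 (SE; limma, unadjusted p = 0.123, adjusted p = 0.929), so the unadjusted p was above 0.05 in both alternatives.

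Markers of oligodendrocytes, the myelinating glia, were highest in place replicates 1, 2 and 3, which also had the most Bok. The order did not hold in the other libraries. Place replicate 5, with Bok at 6.36 RPM, had a marker sum of 198 RPM, and silent replicate 1, with 0 Bok reads, had 585 RPM. Their 11 genes summed to 1512, 2008, 3556, 312 and 198 RPM in place replicates 1 to 5 and to 585, 230, 359 and 118 RPM in silent replicates 1 to 4. Of the 10 tested, none was called and all 10 had a positive log2 fold, with a median of 3.78. Between 8 and 11 of the 11 had reads in each place library and between 6 and 8 in each silent library, and Ermn was at 0 in 7 of the 9 libraries. Mbp, a main component of myelin, had reads in every library, while Opalin was at 0 in silent replicates 2, 3 and 4. The part of these cells in the Bok levels was not tested.

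**Figure D2:**
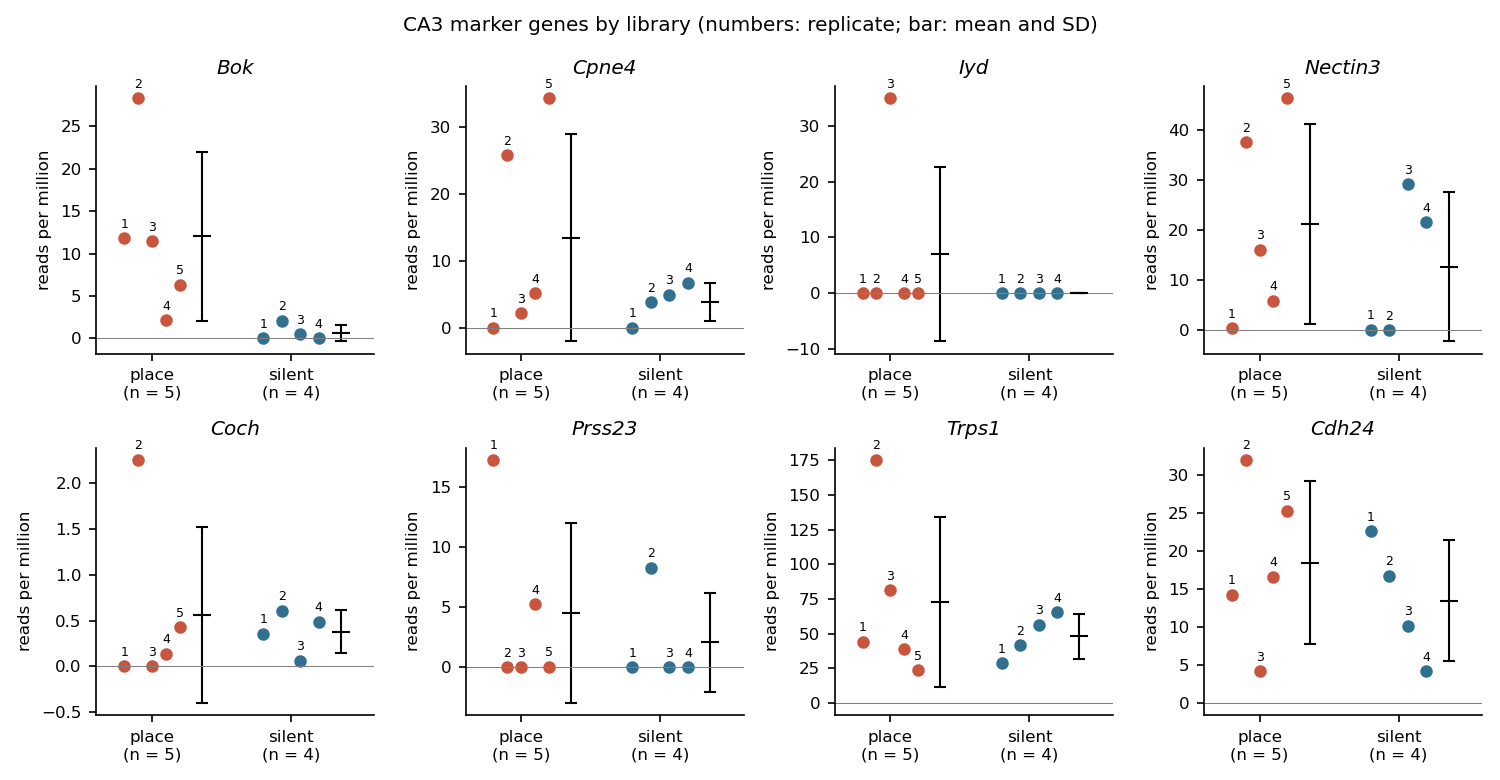
Levels in RPM of each of the 8 CA3 marker genes by library, with place (n = 5) and silent (n = 4) libraries as numbered points and the mean and SD of each group as a bar beside them. The place and silent points of Bok do not overlap, whereas those of the other 7 members do or tie at 0.

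Trps1 encodes a zinc finger repressor of transcription. Its levels were 44.0, 176, 81.2, 38.8 and 23.6 RPM in place replicates 1 to 5 and 28.7, 41.4, 56.4 and 65.4 RPM in silent replicates 1 to 4. Place libraries held both the highest and the lowest value, and the silent range lay within the place range. The means were 72.7 ± 61.3 RPM (SD over 5 place libraries) and 48.0 ± 16.2 (SD over 4 silent libraries). The log2 fold was 0.30 ± 0.56 (SE; limma, adjusted p = 0.938), and without place replicate 2 it was -0.11. An exon of Trps1 overlaps the microRNA gene Mir1907 on the same strand in GENCODE M21, so the assignment of reads there is uncertain.

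Iyd encodes iodotyrosine deiodinase, an enzyme best known from the thyroid, where it recovers iodide. It had 658 reads in place replicate 3, a level of 35.0 RPM, and 0 reads in each of the other 8 libraries. With reads in 1 library, its count rests on the factor assumed in recovering reads. Of the 6138 genes whose recovered reads came from a single library, 35 had at least as many reads as Iyd, and 22 of these 35 had them in place replicate 3. Of single-library genes with any number of reads, 742 had them in place replicate 3. That library had the highest summed oligodendrocyte, astrocyte and dentate granule markers, the last at 617 RPM. It also had the highest sum of the 5 other CA3-enriched genes described below, 1273 RPM, and the lowest of the CA1 markers, 610 RPM. The part of any of these cell types in its Iyd reads was not tested. With no filter on low values, the log2 fold of Iyd was 1.33 ± 1.38 (SE; limma, adjusted p = 0.763).

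Prss23, a serine protease, was above 1 RPM in 3 libraries and near or at 0 in the other 6. It stood at 17.3, 0, 0, 5.23 and 0.0534 RPM in place replicates 1 to 5 and at 0, 8.28, 0 and 0 RPM in silent replicates 1 to 4. Both groups held libraries with and without it. Of its high libraries, place replicate 1 had no Cpne4 reads and silent replicate 2 had no Nectin3 reads. With no filter on low values, its log2 fold was 1.68 ± 2.86 (SE; limma, adjusted p = 0.848). Its exons overlap the antisense gene Prss23os in GENCODE M21, and the sources used here do not give the strand setting, so reads of the pair cannot be told apart.

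Coch, whose protein cochlin is a component of the extracellular matrix of the inner ear, was near the limit of detection. It had 0, 40, 0, 3 and 8 reads in place replicates 1 to 5 and 5, 12, 1 and 11 reads in silent replicates 1 to 4. Place replicate 2 held 40 of its 80 reads and was the one library at 1 RPM or more, with 2.25 RPM. The means were 0.563 ± 0.960 RPM (SD over 5 place libraries) and 0.377 ± 0.234 (SD over 4 silent libraries). With no filter on low values, its log2 fold was -0.46 ± 1.10 (SE; limma, adjusted p = 0.905), opposite in sign to the difference in mean RPM.

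**Figure D3:**
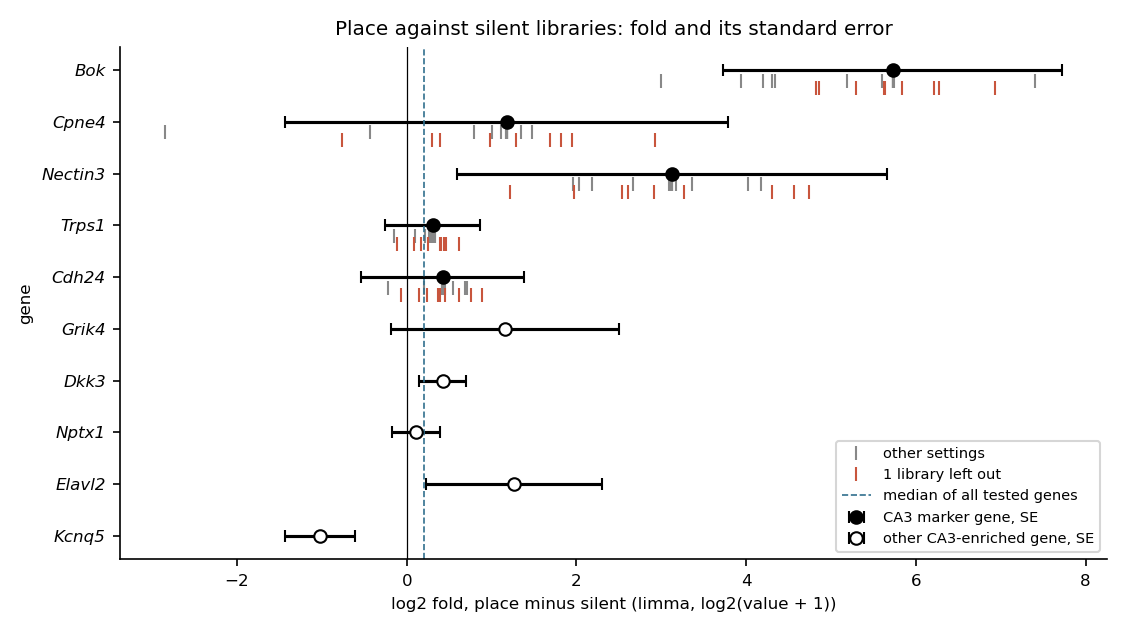
Log2 fold, place minus silent, on the log2(value + 1) scale from limma, with bars of 1 SE, for the 5 tested CA3 marker genes (filled) and 5 other CA3-enriched genes (open). Ticks under the members give the fold with 1 library left out (red) or another setting (grey), and the dashed line is the median of all tested genes, 0.20. Bok stays between 3.0 and 7.40, while the ticks of Cpne4, Trps1 and Cdh24 fall on both sides of 0.

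A list of 5 other CA3-enriched genes was set beside the members. None of the 5 was called, 4 had a positive and 1 a negative log2 fold, and the median was 0.42. Grik4, a kainate receptor subunit found at the mossy fibre to CA3 synapse, stood at 19.5, 20.3, 16.3, 4.14 and 10.3 RPM in place replicates 1 to 5. In silent replicates 1 to 4 it stood at 12.9, 20.8, 0.487 and 6.63 RPM. The groups overlapped, and its log2 fold was 1.16 ± 1.34 (SE; limma, adjusted p = 0.878). An exon of Grik4 overlaps Gm24420 on the same strand in GENCODE M21, so the assignment of reads there is uncertain. Dkk3, a secreted protein of the Dickkopf family, averaged 471 ± 121 RPM (SD) over 5 place and 354 ± 119 over 4 silent libraries, with a log2 fold of 0.42 ± 0.27 (SE; limma, adjusted p = 0.861). Nptx1, a secreted pentraxin that clusters AMPA receptors, averaged 387 ± 160 and 348 ± 86.3 RPM, with a log2 fold of 0.11 ± 0.29 (SE; limma, adjusted p = 0.962). Per kilobase of exon, Dkk3 and Nptx1 lay above 99.1% and 97.5% of the tested genes, well above every member.

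Elavl2, a neuronal RNA-binding protein, stood at 27.4, 29.9, 34.7, 23.3 and 116 RPM in place replicates 1 to 5. In silent replicates 1 to 4 it stood at 45.2, 33.7, 27.2 and 1.46 RPM. Place replicate 5 was high and silent replicate 4 low, the groups overlapped, and the log2 fold was 1.26 ± 1.04 (SE; limma, adjusted p = 0.861). Kcnq5, a subunit of the M-type potassium channel, went the other way, at 36.9, 29.5, 28.6, 36.3 and 43.7 RPM in place replicates 1 to 5. In silent replicates 1 to 4 it stood at 68.7, 94.7, 81.8 and 45.6 RPM, above every place library. Its log2 fold was -1.02 ± 0.41 (SE), with an unadjusted p of 0.0278 and an adjusted p of 0.861 by limma. Groups that did not overlap, with place lower, made up 0.597% of all tested genes. An exon of Kcnq5 overlaps Gm26580 on the opposite strand in GENCODE M21, so its reads are uncertain in the same way as those of Prss23.

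Summed over the 8 members, the level was 87.7, 301, 150, 74.1 and 136 RPM in place replicates 1 to 5 and 51.8, 72.9, 101 and 98.5 RPM in silent replicates 1 to 4. The means were 150 ± 90.5 RPM (SD, n = 5) and 81.1 ± 23.3 (SD, n = 4), and the groups overlapped. Without Trps1, which gave the most reads, the sum ran from 35.2 to 126 RPM in place and from 23.0 to 44.7 RPM in silent libraries. The libraries with the highest sums did not owe them to the same genes. In place replicate 2, Trps1, Nectin3, Cdh24, Bok and Cpne4 were all at 25.8 RPM or more. In place replicate 3, Trps1 at 81.2 RPM and Iyd at 35.0 RPM led, and Cdh24 was at its lowest. In place replicate 5, Nectin3 at 46.3 RPM and Cpne4 at 34.3 RPM led, and Trps1 was at its lowest.

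The 9 CA1 pyramidal markers were higher than the 8 CA3 members in every library. They summed to 1149, 904, 610, 1314 and 914 RPM in place replicates 1 to 5 and to 1214, 1073, 1385 and 1121 RPM in silent replicates 1 to 4. Their most abundant genes were Gpr161, Mpped1 and Man1a. The order held less clearly for the 5 other CA3-enriched genes, led by Dkk3 and Nptx1. These summed to between 708 and 1273 RPM in place and between 771 and 876 RPM in silent libraries. In place replicate 3 they were above the CA1 markers, at 1273 against 610 RPM, and in every other library below them. For each 100 RPM of CA1 markers there were 7.63, 33.3, 24.6, 5.63 and 14.9 RPM of CA3 members in place replicates 1 to 5 and 4.26, 6.80, 7.30 and 8.78 RPM in silent replicates 1 to 4. Place replicates 2, 3 and 5 lay above the silent libraries, and place replicates 1 and 4 lay within their range. Because the genes of each list differ in length, these sums describe the libraries and do not measure a share of cells. Of the 9 CA1 markers, none was called, and 1 had a positive and 8 a negative log2 fold, with a median of -0.20.

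Markers of the neighbouring subfields and of other cells were found at levels that differed between libraries. CA2 markers summed to between 2.32 and 71.2 RPM in place and between 32.2 and 119 RPM in silent libraries. The highest CA2 sum, in silent replicate 4, came mostly from Rgs14, at 118 RPM, and 2 of the 6 measured markers had reads there. Markers of dentate granule cells summed to between 89.1 and 617 RPM in place libraries, highest in place replicate 3, and to between 208 and 283 RPM in silent libraries. Most of these sums came on average from 1 gene, Dock10, with means of 156 RPM in place and 147 RPM in silent libraries. In place replicate 1, 2 of the 7 dentate granule markers had reads. Hilar mossy cell markers, of which none was tested, were at or below 19.2 RPM in place and reached 52.2 RPM in silent replicate 3. GABAergic interneuron markers summed to between 27.6 and 215 RPM in place libraries. In silent replicates 1 to 4 they summed to 66.0, 201, 762 and 70.6 RPM, so that silent replicate 3, with Vip at 639 RPM, stood above the rest. Of the 5 tested, 4 had a positive log2 fold, with a median of 1.82. Astrocyte markers summed to between 46.6 and 1354 RPM in place and between 51.6 and 330 RPM in silent libraries, and all 4 tested had a positive log2 fold, with a median of 4.32. Microglial markers summed to between 5.55 and 175 RPM and between 12.1 and 185 RPM, and 4 of the 5 tested had a positive log2 fold, with a median of 2.68. These medians, like that of the oligodendrocyte markers, were above the 1.18 of the tested members. The median was below it for CA2 markers, at 0.0051 with 2 of 4 tested positive. It was also below for dentate granule markers, at 0.058 with 3 of 6 positive, and excitatory neuron markers, at -0.13 with 1 of 4. Median summed levels in place and silent libraries were 151 and 136 RPM for GABAergic markers. They were 78.5 and 83.2 RPM for astrocyte and 41.2 and 17.7 RPM for microglial markers. Vascular markers summed to no more than 3.49 RPM. None of the tested genes of these lists was called, and their part in the levels of the CA3 members was not tested.

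**Figure D4:**
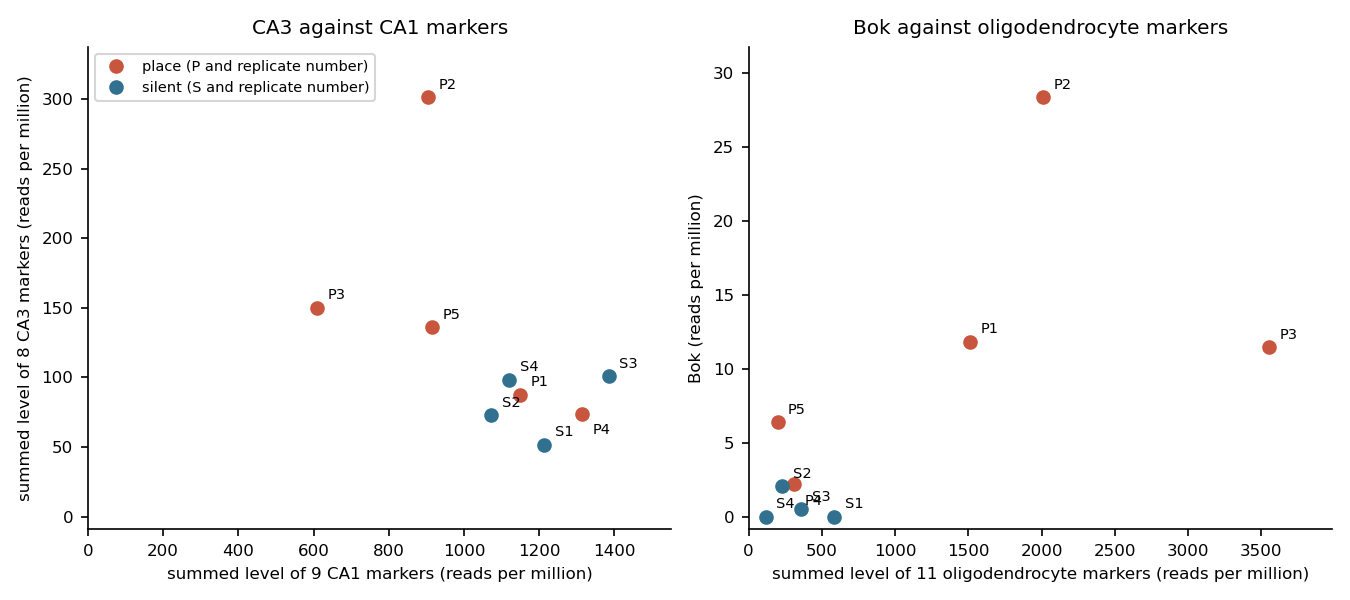
Left, summed level of the 8 CA3 marker genes against that of the 9 CA1 markers, and right, level of Bok against the summed level of 11 oligodendrocyte markers, all in RPM with 1 point per library (P, place; S, silent; the number is the replicate). Place replicates 2, 3 and 5 lie above the silent libraries on the CA3 axis, and place replicates 1, 2 and 3 lie apart on the oligodendrocyte axis.

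The genes whose levels followed the summed level of the members most closely were Ppib, a prolyl isomerase of the endoplasmic reticulum, Mapt, the microtubule-associated protein tau, and Mical3, an actin-regulating oxidoreductase. Over the 9 libraries and among 7862 genes compared, Pearson's r on the log2 scale was 0.935 for Ppib, 0.934 for Mapt and 0.931 for Mical3. Spearman's rho was 0.80, 0.933 and 0.967. Without place replicate 2 and silent replicate 1, the libraries farthest from the median, r was 0.679 for Ppib, 0.830 for Mapt and 0.901 for Mical3. These values describe a choice of the closest out of many genes in libraries that share depth and preparation, and they carry no p-value.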

How the data were processed

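Nuclear RNA was measured in 9 libraries made with a SMART-Seq mRNA kit, per the labels. Per the submitters' processing notes, STAR, HTSeq and GRCm39 were used, with no version or role given. The deposited values are a normalized signal per gene and library. The values were found to be whole reads times a number per gene, with multiples within 0.05 of a whole number, and no label states this. Among multiples that fitted, the one closest to a TMM factor computed per gene across libraries was taken, within 0.01 on the log2 scale. That factor assumes Ezh2 as the reference gene, and its trimming was partly set to follow the values. Recovered reads and RPM therefore rest on an inferred normalization. Reads were recovered for 30115 of 31052 genes (97.0%), all members included. Libraries were scaled by TMM (30% trim of M-values, 5% of A-values), because the deposited values carry no factor per library. The test was limma 3.58.1 in R 4.3.3 with an intensity trend on log2(value + 1), keeping values of at least 10 in at least 4 libraries, and calling genes at a Benjamini-Hochberg adjusted p under 0.05 over 15232 genes. The test was also run on simulated counts, with no loss of reads in single libraries added. In these data 42.0% of tested genes lacked reads in at least 1 library, so that run does not measure the power of the test here. Groups came from the titles, and replicate numbers follow accession order. All 8 members and 5 other CA3-enriched genes are named by rule; other lists give counts and up to 3 genes of highest level, and exceptions (Ermn, overlapping genes) were named after their values were seen. Members and lists were chosen with earlier results of these data known. Scaling, pseudocount, filter, test, covariate and left-out libraries were varied.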

Additional observations from a re-analysis of the deposited data

Results flagged for a closer look

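In 28 ranges within a group (13 CA3 genes and the members' sum, in 2 groups), 4 libraries lay farther from the rest of their group than Dixon's 95% limit. For normally distributed values chance gives about 1 in 20 such ranges, a rate that does not hold for skewed levels with many zeros. A gene with reads in 1 library of a group is flagged at any level, as were Iyd in place and Prss23 in silent libraries. Iyd in silent libraries, all at 0, could not be flagged. Iyd stood at 35.0 RPM in place replicate 3, against 0 in the other place libraries. Coch stood at 2.25 RPM in place replicate 2, against 0.427 in the next place library. Prss23 stood at 8.28 RPM in silent replicate 2, against 0 in the other silent libraries. Elavl2 stood at 116 RPM in place replicate 5, against 34.7 in the next place library. The 4 flags fall in 4 different libraries.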

How the results depend on the processing

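No gene was called in the main test or in 20 of 23 alternatives. Limma without an intensity trend called 20 genes, 18 higher and 2 lower in place, and limma voom on recovered reads called 4, 3 higher and 1 lower; the cause was not tested. Leaving out 1 library at a time gave 0 to 1 genes, the 1 being without place replicate 1. No member was called in any of the 115 alternatives run for the 5 tested members, and the direction reversed in 7. With the number of detected genes as a term, the log2 fold was -2.85 for Cpne4, -0.15 for Trps1 and -0.22 for Cdh24. It was -0.76 for Cpne4 without silent replicate 1 and -0.43 without silent replicates 1 and 4 and place replicate 3. It was -0.11 for Trps1 without place replicate 2 and -0.063 for Cdh24 without silent replicate 4. Over all alternatives Bok ranged from 3.0 to 7.40, with an adjusted p of 0.514 or more, and Nectin3 from 1.22 to 4.74. With 1 library left out, Cpne4 ranged from -0.76 to 2.93, Trps1 from -0.11 to 0.62 and Cdh24 from -0.063 to 0.89. Quantile normalization moved the median log2 fold of all genes from 0.20 to 0.01, and the term for detected genes moved it to -0.03. All 16 group means stayed within 1 SD with plain library totals. The whole-read alternative was chosen after seeing the data. The count-model alternatives were not run, and limma voom was the test applied to recovered reads. No paired analysis was possible because the libraries carry no replicate numbers shared between the groups. At these depths, counting error alone allows a member at 0 reads a level of up to 0.133 to 0.213 RPM. Loss of reads in single libraries is not covered by that limit.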
